A study of Mus musculus with 11 samples.

Results

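The loci described here are mouse microRNA (miRNA) genes with high names in the registry: mmu-mir-6 or mmu-mir-7 followed by 3 further digits. A locus was taken when its mean over 11 small RNA libraries was at least 10 FPKM (sequenced fragments corrected for the length of the transcript and for library size), and 196 of the 3859 small RNA genes in the table met this rule. The table holds 339 loci of these name series, of which 107 had no reads in any library and 36 had some, with a mean under 10 FPKM. The loci were thus chosen by their mean FPKM, which is no result. Just inside the limit lay mmu-mir-7056 (mean 10.51 FPKM), mmu-mir-7043 (10.76) and mmu-mir-7681 (10.85), and just outside it mmu-mir-6926 (9.067), mmu-mir-7032 (8.669) and mmu-mir-7086 (8.575). Each of these 6 loci rested on 1 or 2 reads in all.

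The study followed fibroblasts as they were turned into induced pluripotent stem cells (iPSC). All were labelled Mbd3f/-: of the NuRD subunit gene Mbd3, one allele was floxed and the other deleted. Doxycycline switched on a cassette of the factors Oct4, Klf4, Sox2 and Myc (OKSM). There was 1 library each of uninduced mouse embryonic fibroblasts (MEF), of days 1 to 8 after doxycycline, of established iPSC and of embryonic stem cells (ESC). The genotype of the ESC is unclear, since the label says Mbd3f/- and the column is headed V6.5. Cells were induced at low oxygen in serum and LIF, then moved to serum replacement, LIF and 2i (blockers of MEK and GSK3), for whose addition the sources give different times. Cells of days 3 to 8 and of both lines were plated on irradiated human foreskin fibroblasts, while MEF and days 1 and 2 were not, so feeders, medium and day cannot be told apart. Whether the MEF came from 1 embryo or several is not given in the sources used here. Since no stage was repeated, p-values reflect how far 9 libraries scatter about a trend. They say nothing of how much separate cultures vary. In such bulk libraries, fewer cells of a type and less RNA per cell cannot be told apart.

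A miRNA is usually cut from a long hairpin transcript by the nuclease Drosha in the nucleus and then by Dicer in the cytoplasm, and bases 2 to 8 of the mature strand, the seed, pair with target mRNAs. Mirtrons take another route: the hairpin is a short intron, or one end of an intron, so that the splicing machinery and the debranching enzyme supply an end that Drosha would otherwise cut. Where the hairpin fills only one end of a longer intron, the remaining tail has to be trimmed first. Many mirtrons entered the registry late, when small RNA libraries became deep enough to show hairpins with few reads.

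RefSeq (GRCm38.p6) held a hairpin for 172 of the 196 loci. The others, among them mmu-mir-6539, mmu-mir-6236, mmu-mir-6970, mmu-mir-7070, mmu-mir-7675 and mmu-mir-6952, are named only. The first set shows 3 loci whose hairpin is the whole intron, in Dbn1, Cherp and Hspg2. Each sequence is written 5′ to 3′, with the seed in capitals. The 5p arm begins with the bases at which introns start (gu) and the 3p arm ends with those at which they end (ag).
mmu-miR-6944-5p: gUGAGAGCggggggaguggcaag
mmu-miR-6944-3p: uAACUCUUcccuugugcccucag
mmu-miR-7068-5p: gUGAGGCUcaguauggggugg
mmu-miR-7068-3p: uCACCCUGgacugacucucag
mmu-miR-7018-5p: gUGAGCAGacagggaguggugggg
mmu-miR-7018-3p: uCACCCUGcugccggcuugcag

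The second set shows loci in which only the 3′ end of the hairpin lay at an intron end, chosen because they were among the most abundant (Ptprf and Troap introns) or fell over the course (Armcx3, Plpp2 and Ssh3 introns). The capitals again mark the seed. The 5p arms of mmu-mir-6960 and mmu-mir-7093 share their seed.
mmu-miR-7226-5p: gCCAGGGAaguugauugugugaaggg
mmu-miR-7226-3p: uGACACAGccauucucugagcag
mmu-miR-6960-5p: cAGGAUGAgaagaguuuggcug
mmu-miR-6960-3p: aGCCAACCaccucucuccucag
mmu-miR-7093-5p: cAGGAUGAcagaaggaaaaccu
mmu-miR-7093-3p: uUUCCAUCugucauccugcag
mmu-miR-6909-3p: uGCCUUCCccggccucccacag
mmu-miR-6985-3p: cUCACAGCcaccuccucacag

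The third set shows loci without a hairpin end at an intron end, chosen because their values moved or were high. The 3p arm of mmu-mir-6904 still stops on the last base of a Parp1 intron, although the annotated hairpin runs on into the next exon.
mmu-miR-6904-3p: uCUGAUCUcuuaccccag
mmu-miR-6540-3p: uCUGAAGCuugcuuaccucca
mmu-miR-7224-5p: gGGUAGGCcccucagugaaga
mmu-miR-7655-5p: cGGCCCACggagcuccuaaaga
mmu-miR-7655-3p: uUUAUGACgcuccgugggccug
mmu-miR-7689-5p: cCGAGGCAgccuggcuuag
mmu-miR-7689-3p: uUAGAGCCagacugccuggguuu
mmu-miR-7211-5p: uCUUUCCCucugccacuccacc
mmu-miR-6240: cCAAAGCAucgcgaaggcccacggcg

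By position, most of these loci were intron ends. In the GENCODE vM21 annotation (GRCm38), 165 of the 196 lay in an intron of a gene on the same strand, 20 in exons only, 6 antisense to a gene and 5 between genes. In 136 loci (69.4%) an end of the hairpin lay within 5 nt of an end of the intron: the 3′ end in 123, the 5′ end in 3 and both ends in 10. The match was exact to the base for the 3′ end in 129 loci, for the 5′ end in 12 and for both in 9. Of the tested miRNA loci with numbers of up to 3 digits, 5 of 400 (1.25%) had such an end, and of those with lower 4-digit numbers, 14 of 127 (11.0%). These shares describe the annotation, and no test was made of them.

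**Figure D1:**
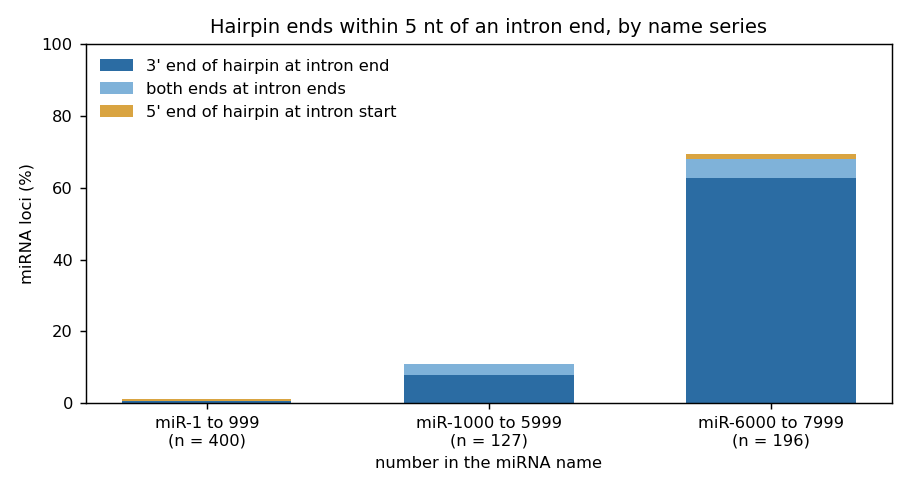
Share of tested miRNA loci (%, vertical axis) with a hairpin end within 5 nt of an intron end on the same strand, by the number in the miRNA name (horizontal axis), split into 3′ end, both ends and 5′ end. The 196 loci with the high numbers stand at 69.4%, beside 1.25% and 11.0% of the older names.

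The 136 loci lay in 134 protein-coding host genes. Skiv2l, which encodes an RNA helicase of the cytoplasmic exosome, held mmu-mir-6970 and mmu-mir-6971, and Srebf1, which encodes a regulator of lipid synthesis, held mmu-mir-6921 and mmu-mir-6922. Introns with a hairpin at their 3′ end were 77 to 9193 nt long (median 481 nt). Introns with a hairpin at both ends were 67 to 96 nt long, which leaves no room for a tail. Hairpins of all 196 loci were 52 to 129 nt long with a median of 65 nt, where the median was 84 nt for the loci with numbers of up to 3 digits. The median GC content of the hairpins was 57.0% (172 loci) and 47.6% (308 loci), respectively.

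The mature sequences carried the marks of intron ends. Of 155 3p arms, 94 stopped on the last base of an intron, among them 3 in loci whose hairpin was not at an intron end. Of 117 3p arms in loci with the 3′ hairpin end at an intron end, 91 (77.8%) had AG as their last bases, the letters that close nearly all introns. This was so for 6 of 35 3p arms of the other loci and for 15 of 276 (5.43%) of the miRNAs with numbers of up to 3 digits. These 3p arms were also rich in pyrimidines, as the stretch before an intron's end is known to be, with a median of 71.4% C or U. The 5p arms of the loci at intron ends were rich in purines instead, with a median of 31.8% C or U (119 arms). In the miRNAs with numbers of up to 3 digits the medians were 52.2% and 50% (276 arms each). As the 3p arms were grouped by lying at intron ends, their AG and their pyrimidines follow from position and are no separate result.

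Few seeds were shared. The 318 mature sequences had 296 distinct seeds, and 20 seeds occurred in more than 1 locus, the most common in 3. The seed AGGGAGG occurred in the 5p arms of the mmu-mir-6967 copies in Kifc1 and Kifc5b and of mmu-mir-7016, and GGGCUGA in those of mmu-mir-6911, mmu-mir-7028 and mmu-mir-7662. The whole-intron hairpins of Cherp and Hspg2 printed above shared CACCCUG in their 3p arms. For 16 loci a seed was also that of a tested miRNA with a number of up to 3 digits. Among them, miR-6932-3p and miR-7039-3p share CUGUUCU with miR-26b-3p, miR-7670-3p shares UCCCUUU with miR-204-5p and miR-211-5p, and miR-7002-3p shares UGUGCUU with miR-218-5p. The mmu-mir-6967 copies have identical mature sequences, as have the mmu-mir-7676-2 copies, so the split of reads between copies is uncertain.

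The values rested on few reads. The number of reads behind a value was recovered from the steps of low FPKM values, under a model of fragment length. For a hairpin of median length 1 read was worth 88.2 FPKM in MEF and 46.7 FPKM on day 7. Summed over 11 libraries, the median locus had 19.3 reads, while the median miRNA locus with a number of up to 3 digits had 6110. For the tested loci with lower 4-digit numbers the median was 91.2 reads, with 40.2% under 50. Of the 196 loci, 63 had under 10 reads, 83 had 10 to 49, 17 had 50 to 99 and 33 had at least 100. In 46 loci, 50% or more of the reads came from 1 library, and 34 loci were above 0 in all 11 libraries. A single locus, mmu-mir-6539, held 118309 of the 138302 reads of all 196 loci (85.5%). The median was 17.9 reads for the loci at intron ends and 25.1 for the other 60.

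**Figure D2:**
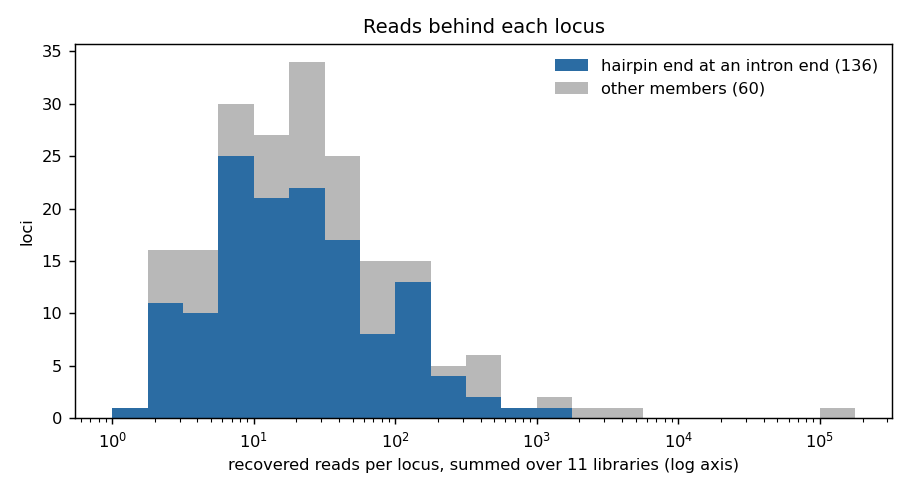
Number of loci (vertical axis) by recovered reads summed over 11 libraries (horizontal log axis), for the 136 loci with a hairpin end at an intron end and the other 60. The bulk lies under 50 reads, and mmu-mir-6539 stands alone at 118309 reads.

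Whole libraries differed in ways that touch these values. The implied mapped reads were between 11600000 (MEF) and 21900000 (day 7). The genes of the table took 44.9% to 59.1% of the mapped reads in 9 libraries, but 22.6% on day 7 and 27.6% on day 8, and FPKM are scaled to all mapped reads. Against miRNA reads in place of mapped reads, the median slope of all tested transcripts moved from 0.02 to 0.14 log2 units per day, and that of the 196 loci from −0.08 to −0.01. As a check of the stages, all 11 pluripotent-cell miRNAs (the miR-290 and miR-302 clusters) rose. They summed to 21448.6 FPKM in MEF, 46901700 on day 8, 21869100 in iPSC and 17739300 in ESC, so both lines lay under day 8. Mir295 was listed at 0 in iPSC, and 1 of the 11 was listed at 0 in ESC. Muscle miRNAs summed to 176879 FPKM in MEF, 330.767 on day 8, 1675.01 in iPSC and 719.904 in ESC, with Mir133b and Mir206 listed at 0 on day 8, and all 5 fell. Blood cell miRNAs went from 463394 to 115867 FPKM, with 3 of 7 falling and Mir511 listed at 0 on day 8, and stood at 840852 in iPSC and 417846 in ESC. Even so, Mir223 and Mir511 were listed at 0 in iPSC, and 2 of the 7 were at 0 in ESC. Fibroblast and mesenchymal miRNAs went from 25207800 to 11264700 FPKM, with 5 of 7 tested falling, and stood at 64708800 on day 1, 5998230 in iPSC and 26299200 in ESC. Mir143, which is on this list, was listed at 0 in MEF. The 9 neural miRNAs summed to 201797 FPKM in MEF, 908999 on day 6, 143420 on day 8, 145077 in iPSC and 128630 in ESC. The endothelial miRNA stood at 44995.2 FPKM in MEF, 55912 on day 8, 204018 in iPSC and 231538 in ESC. Neither list had a called slope. The part of these cell types in the falls described next, and in the higher values of the lines, was not tested.

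Over the course, 12 of the 196 loci fell and 1 rose. The test was limma's slope per day on log2(FPKM + 10) over MEF, placed at day 0, and days 1 to 8, with Benjamini-Hochberg adjustment over 1419 transcripts and a threshold of 0.05. Of all tested transcripts 10.6% fell and 12.5% rose, so the share of these loci that fell (6.12%) and rose (0.51%) was under the background. Of the tested miRNAs outside these loci, 19.5% fell and 13.8% rose. Those miRNAs had a median of 1310 reads and all tested transcripts one of 224, beside 19.3 for the 196 loci. The part of read depth in the lower shares was not tested. At an unadjusted p under 0.05, 28 loci fell and 4 rose, where 16.1% and 20.2% of all tested transcripts did. The F-test of day and day squared, which also sees courses that turn, called 35 of the loci (17.9%), beside 32.6% of all tested transcripts. It called 48.3% of the tested miRNAs outside these loci. Among the 33 loci with at least 100 reads, 3 fell, none rose and the F-test called 12 (36.4%). Of the falls, 8 were among the 136 loci at intron ends (5.88%) and 4 among the other 60 (6.67%), and the F-test called 17 and 18 loci in these groups (12.5% and 30.0%). The difference between the groups was not tested.

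**Figure D3:**
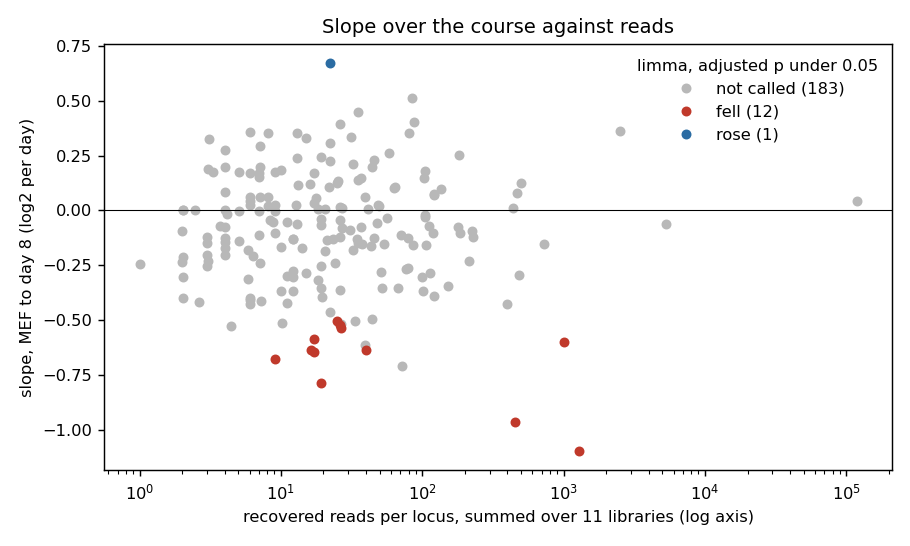
Slope over MEF to day 8 (log2 FPKM + 10 per day, vertical axis) against recovered reads over 11 libraries (horizontal log axis) for 196 loci, with those past an adjusted p of 0.05 in colour. Of the 12 falling loci, 3 had more than 400 reads (mmu-mir-7224, mmu-mir-6944 and mmu-mir-6540) and the other 9 lie at the low end, as does the rising mmu-mir-6904.

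The steepest fall was that of mmu-mir-6944 (ENSMUSG00000098341, chr13:55477681-55477776, minus strand), whose hairpin is the whole 96-nt intron of Dbn1, the gene of the actin-binding protein drebrin. It stood at 9543 FPKM in MEF, then at 9459, 3855, 1123, 848, 80.7, 91.7, 46.2 and 49.2 FPKM on days 1 to 8, at 5928 in iPSC and at 1422 in ESC. MEF and day 1 were high, days 5 to 8 were at 3 or 4 reads, and both lines lay above all libraries from day 3 on. The slope was −1.09 ± 0.11 per day (SE over 9 libraries, adjusted p = 0.000366). MEF was 194-fold above day 8 (95% interval 65.9 to 946, from 328 and 3 reads, counting error only). The iPSC value was 121-fold above day 8 (41.0 to 591) and the ESC value 28.9-fold (9.53 to 143). The mature arms of this locus are the first pair printed above.

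Next was mmu-mir-6540 (ENSMUSG00000098300, chr16:42303362-42303469, minus strand), inside an intron of Gap43, which encodes a growth-cone protein of neurons. It stood at 1664 FPKM in MEF, with 2432, 1138, 446, 463, 93.8, 79.97, 21.5 and 0 on days 1 to 8, at 935 in iPSC and at 397 in ESC. As for mmu-mir-6944, values were high to day 2 and low from day 5, and both lines lay above days 5 to 8. The slope was −0.96 ± 0.10 per day (adjusted p = 0.000327). MEF was 77.4-fold above day 7 (20.8 to 650, 82 and 2 reads) and at least 48.5-fold above day 8, taking 3 reads (34.3 FPKM) as the floor of that library. Both calls held without any 1 library and without days 7 and 8 (slopes −1.26, adjusted p = 0.00354, for mmu-mir-6944 and −0.82, adjusted p = 0.00524, for mmu-mir-6540). On days 3 to 8 alone mmu-mir-6944 missed the threshold (slope −0.94, adjusted p = 0.0513), while mmu-mir-6540 was called (slope −1.13, adjusted p = 0.0203).

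The third fall on many reads was mmu-mir-7224 (ENSMUSG00000098299, chr2:67675457-67675516, plus strand), in an intron of B3galt1, the gene of a galactosyltransferase. It stood at 4753 FPKM in MEF, at 12836, 21972, 18047, 12965, 3269, 2265, 586 and 436 on days 1 to 8, at 3539 in iPSC and at 1513 in ESC. It was highest on day 2 and all of days 5 to 8 lay below MEF. The slope was −0.60 ± 0.16 per day (adjusted p = 0.0273) and the F-test gave an adjusted p of 0.00182. Day 3 was 41.4-fold above day 8 (20.1 to 105). Leaving out day 1 (adjusted p = 0.0615), 2 (0.0526), 6 (0.0506), 7 (0.0756) or 8 (0.122) ended the call of the slope.

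**Figure D4:**
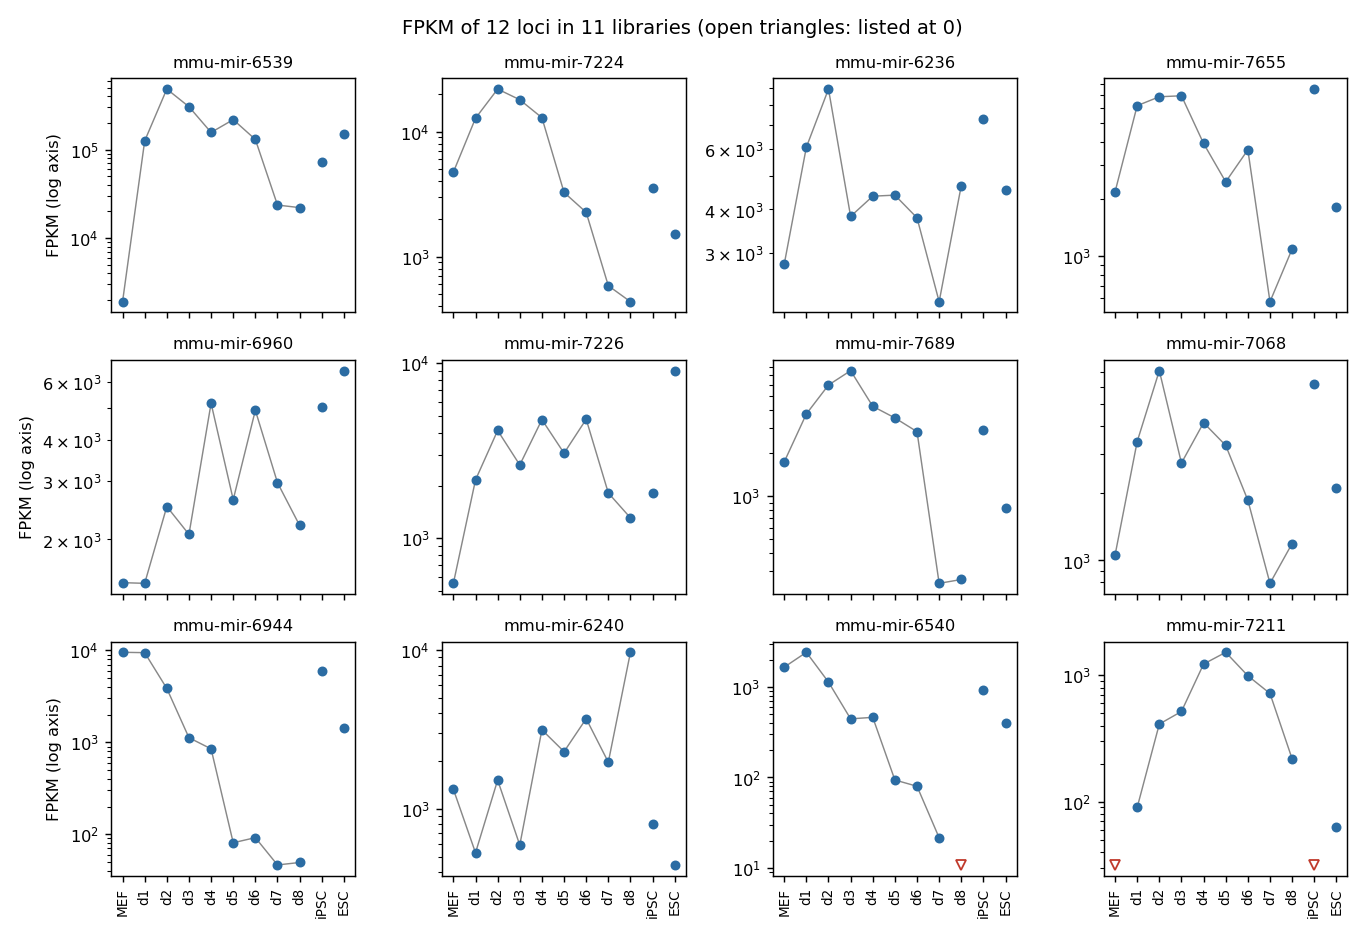
FPKM (log axis, a separate scale in each panel) of 12 loci in MEF, on days 1 to 8 (joined by a line), in iPSC and in ESC, with open triangles where a value was listed at 0. The panels of mmu-mir-6944 and mmu-mir-6540 go down from day 1 and are up again in both lines, that of mmu-mir-6240 is highest on day 8, and that of mmu-mir-7211 is highest on day 5.

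The other 9 falling loci had 9.08 to 40.21 reads in all. With a 3′ hairpin end at an intron end, mmu-mir-7093 (chrX:134757631-134757731, plus strand) lies in Armcx3, which encodes a mitochondrial membrane protein. It was at 49.9 FPKM in MEF, at 116, 148, 118, 31.6 and 23.1 on days 1 to 5, at 0 on days 6 to 8 and in ESC, and at 19.5 in iPSC. Its slope was −0.52 ± 0.12 per day (adjusted p = 0.0134). The locus mmu-mir-6909 (chr10:79531029-79531090, minus strand) lies in Plpp2, the gene of a lipid phosphatase. It was at 202 FPKM in MEF, at 94.0, 86.0, 180 and 193 on days 1 to 4, at 0 on days 5 to 8, at 237 in iPSC and at 264 in ESC. Its slope was −0.64 ± 0.15 per day (adjusted p = 0.0162), and the values of both lines lay above every library of the course. The calls of mmu-mir-7093 and mmu-mir-6909 held without any 1 library, as did those of mmu-mir-6944 and mmu-mir-6540. Each value here is worth only a few reads.

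There were 4 further falls at intron ends among the loci named by rule, each on at most 11 reads in a library. In Itga5, the gene of the fibronectin receptor's alpha subunit, mmu-mir-6963 (chr15:103350455-103350525, minus strand) was at 558 FPKM in MEF, at 519, 296, 41.4, 177, 0, 55.0, 0 and 39.3 on days 1 to 8, at 599 in iPSC and at 45.5 in ESC. The iPSC value was near that of MEF, and ESC lay with the late days. Its slope was −0.64 ± 0.17 per day, with an adjusted p of 0.0284, and leaving out MEF (adjusted p = 0.0862), day 1 (0.0795), 2 (0.0542) or 7 (0.0781) ended the call. In Lrrk1, the gene of a kinase, mmu-mir-7057 (chr7:66381667-66381724, minus strand) was at 121 FPKM in MEF, at 899 and 822 on days 1 and 2, at 76.7 on day 4, at 94.5 in iPSC and at 0 in the other libraries. Most of its reads came from days 1 and 2. Its slope was −0.79 ± 0.22 per day (adjusted p = 0.0323), and the adjusted p passed 0.05 when day 1 (0.0945), 2 (0.0515), 5 (0.0505), 6 (0.0641), 7 (0.0671) or 8 (0.0593) was left out. In Rabac1, the gene of a Rab-binding protein of vesicle traffic, mmu-mir-7046 (chr7:24970010-24970075, minus strand) was at 85.4 FPKM in MEF, at 159, 363, 50.7, 162 and 78.9 on days 1 to 5, at 0 on days 6 to 8, at 133 in iPSC and at 111 in ESC. Its slope was −0.59 ± 0.15 per day (adjusted p = 0.025), and the call was lost without day 1 (0.0578), day 6 (0.0506), day 7 (0.0672) or day 8 (0.0844). In Ssh3, the gene of a cofilin phosphatase, mmu-mir-6985 (chr19:4263818-4263878, minus strand) was at 423 FPKM in MEF, at 98.2 and 180 on days 1 and 2, at 0 on days 3 to 8, at 82.6 in iPSC and at 68.9 in ESC. Its zeros began with the first libraries on human feeders, and the feeders' part in this was not tested. Its slope was −0.68 ± 0.16 per day (adjusted p = 0.0179), and the call was lost without MEF (0.0771).

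The exonic falls were in Pou2f2 and Pdgfra. In Pou2f2, the gene of the lymphoid transcription factor Oct2, mmu-mir-6537 (chr7:25097066-25097175, minus strand) was at 115 FPKM in MEF, at 53.4, 130 and 56.9 on days 1 to 3, at 15.1 on day 6, at 15.0 in iPSC, at 12.5 in ESC and at 0 on the other days. Its slope was −0.50 ± 0.12 per day (adjusted p = 0.0181), with the call lost without MEF (0.0531). The last 2 falls were outside the rule for named loci and are named to complete the count. In Pdgfra, the gene of a receptor of fibroblasts and other mesenchymal cells, mmu-mir-7025 had 497 FPKM in MEF, then 289 on day 1, at 8.28 on day 3, at 117 on day 4 and at 0 in all other libraries, both lines included. Its slope was −0.64 ± 0.20 per day (adjusted p = 0.0455), and leaving out MEF (0.182) or day 1 (0.128), 3 (0.0527), 5 (0.0677), 6 (0.0854), 7 (0.0855) or 8 (0.079) ended the call. At an intron end of Elof1, which encodes an elongation factor, mmu-mir-7084 was at 72.6 FPKM in MEF, at 260, 123, 129, 120, 0.0157 and 57.2 on days 1 to 6, at 0 on days 7 and 8, at 619 in iPSC and at 94.6 in ESC. Its slope was −0.54 ± 0.15 per day (adjusted p = 0.0328), and the call was lost without day 1 (0.0911), day 2 (0.0595), day 3 (0.0527), day 7 (0.0876) or day 8 (0.113).

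All 12 loci also fell when values were scaled to miRNA reads, with adjusted p from 0.000415 for mmu-mir-6540 to 0.0441 for mmu-mir-6963. Also called as falling on that scale were mmu-mir-7656 (slope −0.375, adjusted p = 0.0495) and a mmu-mir-7676-2 copy (slope −0.498, adjusted p = 0.0436). Without days 7 and 8 only mmu-mir-6944, mmu-mir-6540 and mmu-mir-6985 (slope −0.98, adjusted p = 0.023) of the 12 were called. On days 3 to 8 alone only mmu-mir-7224 (slope −1.16, adjusted p = 0.0176), mmu-mir-6540 and mmu-mir-7093 (slope −0.75, adjusted p = 0.0433) of the 12 were. With no filter on low values, mmu-mir-7224 (adjusted p = 0.0534), mmu-mir-6963 (0.058), mmu-mir-7057 (0.0708), mmu-mir-7084 (0.0627) and mmu-mir-7025 (0.0928) missed the threshold. With a pseudocount of 1 so did mmu-mir-6963 (0.0839) and mmu-mir-7025 (0.052), and with one of 50 mmu-mir-7046 (0.0519) and mmu-mir-7057 (0.0546).

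The 1 rising locus was mmu-mir-6904 (chr1:180587201-180587267, plus strand), at the border of an intron and an exon of Parp1, the gene of a DNA-damage sensor. It was listed at 0 in MEF and on days 1 to 4, and stood at 75.7, 452, 174 and 92.4 FPKM on days 5 to 8, at 256 in iPSC and at 214 in ESC. Days 5 to 8 and both lines were thus all above the earlier libraries, on 1, 7, 4, 2, 4 and 4 reads. The slope was 0.67 ± 0.16 per day (adjusted p = 0.0183) and was called without any 1 library, but not without days 7 and 8 (adjusted p = 0.0719) or on days 3 to 8 alone (0.148). Against miRNA reads, 5 further loci were called as rising: mmu-mir-6240 (0.50 per day, adjusted p = 0.00967), mmu-mir-6959 (0.57, 0.0123), mmu-mir-6960 (0.27, 0.0205), mmu-mir-7211 (0.64, 0.0375) and mmu-mir-7677 (0.53, 0.047). In FPKM their slopes were 0.36, 0.45, 0.13, 0.51 and 0.41 with adjusted p from 0.0508 to 0.35. Against miRNA reads the median slope of all 1419 tested transcripts was 0.139 per day. A larger share of them than of the 196 loci rose on that scale, with the counts in the closing section.

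Some loci were highest within the course and were called by the F-test alone. On days 3 to 8 by themselves limma's F-test called 0 of the 196 loci, with 46 at an unadjusted p under 0.05. No share over all tested transcripts is given for these days, so the 46 cannot be read as particular to these loci. In an intron of Tmcc3os and antisense to Tmcc3, mmu-mir-7211 (chr10:94586137-94586199, minus strand) was at 0 in MEF, at 90.04, 412, 518, 1229, 1523, 993, 719 and 219 FPKM on days 1 to 8, at 0 in iPSC and at 63.2 in ESC. It climbed to day 5 and went down again, and both lines lay under every day of induction. The F-test gave an adjusted p of 0.000426 and the slope was 0.51 ± 0.22 (adjusted p = 0.128). Antisense to Sorcs2, mmu-mir-7689 (chr5:36301570-36301628, plus strand) was at 1734 FPKM in MEF, at 3759, 5991, 7551, 4252, 3526, 2824, 245 and 261 on days 1 to 8, at 2889 in iPSC and at 829 in ESC. It was highest on day 3, 29.0-fold above day 8 (11.1 to 109) and 4.35-fold above MEF (2.56 to 8.13). Its F-test gave an adjusted p of 0.00331, lost without days 7 and 8 (0.129), and its slope one of 0.108.

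At 3′ intron ends, mmu-mir-7049 in Pak4 (chr7:28560925-28560984, minus strand), the gene of a kinase of the actin cytoskeleton, was at 0 in MEF, at 103, 188, 394, 561, 204, 174, 234 and 62.3 FPKM on days 1 to 8, at 863 in iPSC and at 648 in ESC. Both lines lay above the whole course, whose highest library was day 4. The F-test gave an adjusted p of 0.00756, lost without MEF (0.0691). In Rce1, the gene of a CAAX protease, mmu-mir-6986 (chr19:4623898-4623955, minus strand) was at 0 in MEF and on day 1, at 103, 216, 153, 447 and 95.4 FPKM on days 2 to 6, at 0 on days 7 and 8, at 945 in iPSC and at 394 in ESC (F-test, adjusted p = 0.00989). Its highest day of the course rested on 4 reads. The mmu-mir-7676-2 copy in Csf2rb2 (ENSMUSG00000098996), the gene of a cytokine receptor subunit, was called (F-test, adjusted p = 0.00738) on 252 FPKM in MEF, 176 on day 1 and 0 in all other libraries, 4.4 reads in all, which it shares with its copy in Csf2rb.

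The most abundant locus, mmu-mir-6539 (ENSMUSG00000098866, chr14:67859636-67859745, minus strand), lies inside an intron of Dock5, the gene of a Rac exchange factor, away from the intron's ends. It was at 1898 FPKM in MEF, at 125281, 483607, 305228, 156240, 218034, 130172, 23555 and 22034 on days 1 to 8, at 72110 in iPSC and at 149541 in ESC. MEF was the lowest library and day 2 the highest, and days 7 and 8 lay under both lines. Day 2 was 255-fold above MEF (210 to 314, from 29632 and 99 reads) and 21.9-fold above day 8 (21.1 to 23.1). ESC was 2.07-fold above iPSC (2.0 to 2.14) by counting error alone, which does not include the spread between cultures. The F-test gave an adjusted p of 0.0276, lost without day 3 (0.0676), day 5 (0.0525), day 6 (0.0529), or days 7 and 8 together (0.0789), and with no filter on low values (0.0619), while the slope was 0.04 ± 0.30 (adjusted p = 0.949). On days 3 to 8 alone its slope was −0.80 (adjusted p = 0.0484).

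The loci mmu-mir-6236 and mmu-mir-6240 lie between genes. The first (chr9:110281287-110281409, plus strand) was at 2778 FPKM in MEF, at 6051, 8913, 3819, 4369, 4400, 3783, 2165 and 4690 on days 1 to 8, at 7297 in iPSC and at 4553 in ESC. Its range was narrow, with day 2 at 4.12-fold day 7 (3.61 to 4.74), and neither the slope (−0.06 ± 0.09, adjusted p = 0.691) nor the F-test (0.731) called it. By contrast, mmu-mir-6240 (chr5:114851948-114852064, plus strand) was at 1328 FPKM in MEF, at 528, 1517, 591, 3146, 2293, 3698, 1967 and 9691 on days 1 to 8, at 802 in iPSC and at 443 in ESC. Day 8 was 7.3-fold above MEF (5.82 to 9.19) and 21.9-fold above ESC (16.1 to 30.3), which was its lowest library. Its slope was 0.36 ± 0.12 (adjusted p = 0.0508), and its 1085 reads made up much of the 2205.36 reads of all these loci other than mmu-mir-6539 on day 8. Another locus highest on day 8 was mmu-mir-6538 in an Rnf144a intron, named after its values were seen, with 134 FPKM in MEF, 465 on day 8, 15.0 in iPSC and 0 in ESC. Its slope was 0.35 ± 0.17 (adjusted p = 0.162).

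Besides mmu-mir-6944, 3 of the 10 most abundant loci lay at intron ends, and the slope test called none of these 3. In Cherp, whose protein takes part in calcium release and splicing, mmu-mir-7068 fills a 74-nt intron (chr8:72470016-72470089, minus strand). It was at 1056 FPKM in MEF, at 3405, 7072, 2729, 4136, 3273, 1860, 790 and 1191 on days 1 to 8, at 6160 in iPSC and at 2105 in ESC. Day 2 and iPSC were high, and day 2 was 8.95-fold above day 7 (5.84 to 14.6), but the slope (−0.15 ± 0.13, adjusted p = 0.447) and the F-test (0.0928) missed the threshold. In Troap, the gene of a spindle protein, mmu-mir-6960 (chr15:99080805-99080865, plus strand) was at 1480 FPKM in MEF, at 1473, 2515, 2072, 5162, 2639, 4916, 2969 and 2205 on days 1 to 8, at 5036 in iPSC and at 6478 in ESC. ESC was its highest library, 4.38-fold above MEF (2.51 to 8.4), and its slope was 0.13 ± 0.09 (adjusted p = 0.35). In Ptprf, the gene of a receptor phosphatase, mmu-mir-7226 (chr4:118210505-118210564, minus strand) was at 553 FPKM in MEF, at 2156, 4131, 2625, 4766, 3065, 4791, 1815 and 1308 on days 1 to 8, at 1812 in iPSC and at 9077 in ESC. ESC was 5.01-fold above iPSC (3.15 to 8.4) and 16.4-fold above MEF (6.91 to 51.9). Its F-test gave an adjusted p of 0.0289, lost without MEF (0.132), day 4 (0.0649), day 8 (0.0647), or days 7 and 8 together (0.111), and with quantile normalization (0.138), where the slope changed from 0.08 to −0.03.

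In an intron of Mllt10, which encodes a partner of the histone methyltransferase Dot1l, mmu-mir-7655 (chr2:18057846-18057903, plus strand) was at 2178 FPKM in MEF, at 6182, 6887, 6968, 3913, 2460, 3623, 577 and 1091 on days 1 to 8, at 7558 in iPSC and at 1814 in ESC. Day 3 was 12.1-fold above day 7 (6.19 to 27.5), and iPSC was above every day. The F-test gave an adjusted p of 0.0456, which was lost when any 1 of days 1 to 7 was left out. It was also lost against miRNA reads (0.152), with a pseudocount of 1 (0.0616), with no filter (0.0689) and without days 7 and 8 (0.435). The slope had an adjusted p of 0.127.

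Summed over the loci, the 136 at intron ends were highest in iPSC. Per 1000000 implied mapped reads they gave 45.0 reads in MEF, 68.2, 69.8, 48.6, 43.2, 30.4, 32.6, 11.9 and 17.3 on days 1 to 8, and in the lines 84.0 (iPSC) and 50.1 (ESC). Per 1000000 miRNA reads they gave 93.6 in MEF, 123, 147, 109, 82.7, 68.9, 77.4, 56.6 and 69.6 on days 1 to 8, and in the lines 174 (iPSC) and 108 (ESC). The low days 7 and 8 were thus less far from the other libraries against miRNA reads, where day 5 (68.9) lay under day 8 (69.6). Much of the MEF sum was mmu-mir-6944, with 328 of 521.6 reads. Without it, a check made after the values were seen, MEF gave 16.7 reads per 1000000 mapped reads, beside 40.2 on day 1, 58.3 on day 2, 11.7 on day 7, 17.2 on day 8, 66.4 in iPSC and 45.9 in ESC. Per 1000000 miRNA reads MEF was then the lowest library at 34.8, with 56.0 on day 7 and 138 in iPSC, which remained the highest. With mmu-mir-6539 included, all 196 loci took between 0.0206% (MEF) and 0.498% (day 2) of miRNA reads, with 0.0705% on day 7. These sums have 1 value a stage and no test.

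**Figure D5:**
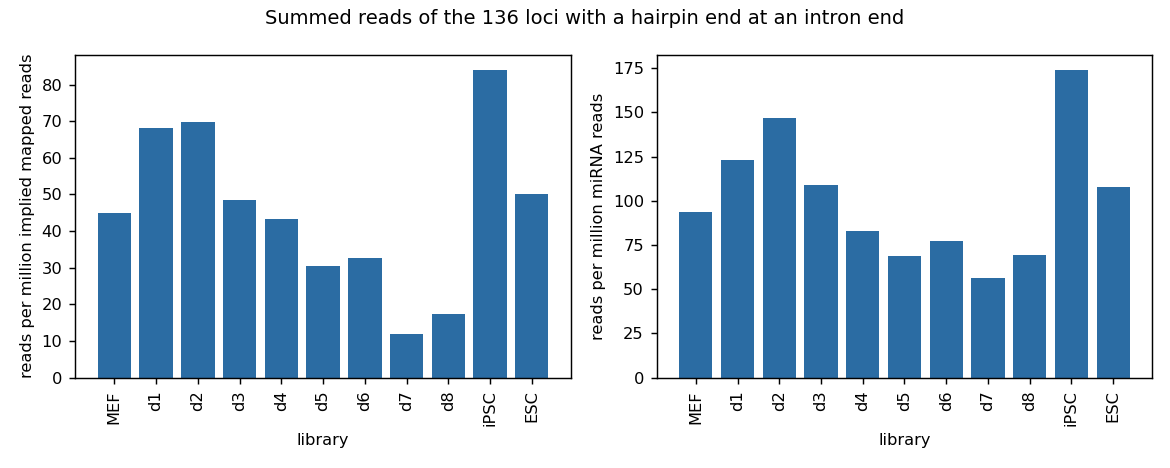
Summed recovered reads of the 136 loci with a hairpin end at an intron end in each of 11 libraries, per 1000000 implied mapped reads (left) and per 1000000 miRNA reads (right). iPSC is the highest bar on both scales (84.0 and 174) and day 7 the lowest (11.9 and 56.6).

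In the established lines, read against MEF without a test, 48 of the 196 loci (24.5%) were at least 4-fold higher in both iPSC and ESC on FPKM + 10, beside 29.7% of all tested transcripts, and 17 (8.67%) were at least 4-fold lower in both, beside 7.75%. Of the 48 higher loci, 41 were listed at 0 in MEF, where 93 of the 196 were listed at 0, and 9 had at least 10 reads in both lines. The 17 lower loci had at most 8.035 reads in MEF (mmu-mir-7025), and 0 of the 33 loci with at least 100 reads were among them. All 1.01 reads of mmu-mir-7056 and all 2.019 reads of mmu-mir-6769b came from MEF, so both passed the mean filter through that library alone. All 4.033 reads of mmu-mir-7679, counted as higher, came from iPSC and ESC. For loci of this kind the filter itself set the direction, and the shares above include them. Many of the higher and all of the lower differences are therefore of few reads. Among the 33 loci with at least 100 reads, 28 were higher in iPSC than in MEF and 27 in ESC than in MEF. At least 4-fold higher in both lines were 10 of the 33 (30.3%), beside 29.7% of all tested transcripts. Of the 33, 28 were higher in iPSC than on day 8 and 30 in ESC than on day 8. The genes of the table took 27.6% of mapped reads on day 8, 53.9% in iPSC and 51.5% in ESC. MEF was the lowest library for 12 of the 33 and day 7 for 10. On day 7 the genes of the table took 22.6% of mapped reads. Values in iPSC exceeded those in ESC for 24 of the 33, and for 114 of all 196, with 49 lower and 33 equal. No share over all tested transcripts is given for these counts of higher, lower and lowest values, so they cannot be read as particular to these loci.

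Of the 136 loci at intron ends, 35 (25.7%) were at least 4-fold higher in both lines than in MEF, beside 29.7% of all tested transcripts. At least 4-fold lower in both were 9 (6.62%), beside 7.75%. A few loci at intron ends with high values in the lines, picked after their values were seen, are given as examples. In Dnmt1, the maintenance DNA methyltransferase, mmu-mir-7081 was at 0 FPKM in MEF, 101 on day 8, 654 in iPSC and 234 in ESC. In Notch1, the gene of a signalling receptor, mmu-mir-6996 was at 211 FPKM in MEF, 238 on day 8, 1238 in iPSC and 896 in ESC. In Wasf2, the gene of an actin regulator, mmu-mir-7017 was at 0, 399, 1659 and 857 FPKM in the same libraries. Their slopes over the course were 0.07, −0.03 and 0.18 (adjusted p = 0.889, 0.938 and 0.691). In Mybl2, the gene of a cell cycle transcription factor, mmu-mir-7003 was at 171 FPKM in MEF, 529 on day 8, 2000 in iPSC and 501 in ESC, where the iPSC value rested on 30.2 reads. The host mRNAs of these loci were not analysed here.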

How the data were processed

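Small RNA libraries of 11 stages (TruSeq small RNA kit with gel size selection, per the labels' protocols) were analysed, 1 library a stage. The authors deposited FPKM values per small RNA gene. Per the submitters' processing notes, the tools were Bowtie2 2, Cufflinks 2.2.1 and CASAVA 1.8.2 and the build mm10, with no role given. How reads matching several loci were shared is not given in the sources used here. The table held 0 columns of other samples. All 196 loci were matched by gene ID to GENCODE vM21.

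The FPKM steps of low values gave reads under a fragment length of 200 ± 80 nt. For 325 of 326 transcripts the worth of 1 read lay within 10% of the median, and 92.1% of 877 low values of the 196 loci were whole within 0.1 read, where chance gives 20%. As the worth of a read depends on this model, no count test was run. Intervals are exact and binomial at 95% and cover counting error only.

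Slopes and F-tests were fitted with limma 3.58.1 in R 4.3.3 on log2(FPKM + 10) of 1419 transcripts, those averaging 10 FPKM or more (7 residual and 2.53 prior degrees of freedom, two-sided), and every adjusted p is limma's after Benjamini-Hochberg. The scale understates changes of low loci. The fit was tested on simulated data with normal noise. These held no zeros and no steps of single reads, so they do not speak for the fit of loci with few reads. Python 3.11.15, pandas 2.3.3, scipy 1.17.1 and matplotlib 3.10.9 were used for the other steps. Loci were named by rule: the 10 with the highest mean, up to 10 in each direction with the smallest adjusted p of the slope, and up to 5 called by the F-test alone. The loci and all lists were chosen with earlier results of these data known. Alternatives were other pseudocounts, filters, normalizations, sets of days and tolerances, and leaving out each library.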

Additional observations from a re-analysis of the deposited data

How the results depend on the processing

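No paired analysis was possible because each stage had 1 library. The count of falling loci (12) was 7 with no filter on low values, 21 with quantile normalization and 3 without days 7 and 8. Leaving out 1 library gave 6 (without day 7) to 25 (without MEF). The count of rising loci (1) was 0 on days 3 to 8 (limma, with 5 at an unadjusted p under 0.05), 3 with a mean of at least 100 FPKM, 2 among miRNA genes alone, 2 with a pseudocount of 50, 2 with quantile normalization, 6 against miRNA reads, 2 with a trended robust prior and 3 without days 7 and 8, and without 1 library it was 1 to 3. The F-test's count (35) was 0 on days 3 to 8, 22 with no filter and 15 without days 7 and 8, and without 1 library it was 22 to 38. No shares over all tested transcripts are given for the F-test in these settings or for the falls with quantile normalization. Those counts show only how far the calls depend on the setting. Of all tested transcripts, 177 rose, with 66 on days 3 to 8, 111 among miRNA genes alone, 340 against miRNA reads and 93 to 175 without 1 library. The 150 that fell became 80 on days 3 to 8, 69 without days 7 and 8 and 97 to 170 without 1 library. Of loci at least 4-fold from MEF in both lines, 23 in place of 48 were higher and 4 in place of 17 lower with a pseudocount of 50. The slope of mmu-mir-6539 turned to −0.80 (limma, adjusted p = 0.0484) on days 3 to 8. Fewer libraries entered the fits of fewer days; for the other settings the cause was not tested. On days 3 to 8 mmu-mir-6985 was listed at 0 throughout and gave no value. The other 11 falling loci had a slope below 0 in each of the 19 alternatives that tested them, as the filter at a mean of 100 FPKM removed some of them. Depth is the main limit: 146 of the 196 loci had under 50 reads.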
